A study of Homo sapiens with 8 samples.

Results

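The 10 genes described here encode RNA-binding proteins of 4 families, RBFOX (RBFOX1, RBFOX2, RBFOX3), NOVA (NOVA1, NOVA2), the neuronal ELAVL or Hu proteins (ELAVL2, ELAVL3, ELAVL4) and PTBP (PTBP1, PTBP2). They were found by symbol, and all 10 were among the 60659 genes of the count table. The genes were chosen by family and function, selected on measured values as well, since the levels of these genes in the overexpression comparison were known when they were put together. Their differences in that comparison, and in every other comparison that uses its libraries, are therefore given as a description, with no test of the members themselves.

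These proteins shape neuronal transcripts after transcription. RBFOX proteins bind (U)GCAUG elements beside alternative exons, NOVA proteins bind YCAY clusters, and ELAVL proteins bind U-rich and AU-rich stretches that affect splicing, mRNA stability and translation. PTBP1 is the polypyrimidine tract binding protein of non-neuronal cells and progenitors. It holds back many neuronal exons, an exon of its paralog PTBP2 among them, and in developing neurons PTBP1 gives way to PTBP2 while ELAVL and NOVA genes come on.

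Ribosomal RNA-depleted total RNA was sequenced from the human neuroblastoma line SK-N-SH. There were 2 libraries in each of 4 groups, and all groups were kept in differentiation medium with 10 µM ATRA (all-trans retinoic acid) for 24 h. Parental cells received doxycycline (Dox). The ZMYND8 overexpression group carried FLAG-tagged ZMYND8, a chromatin reader protein, in a Dox-inducible lentiviral vector and received Dox as well. The other 2 groups were KD control cells and ZMYND8 knockdown (KD) cells, for which the labels name no Dox. The overexpressing cells were a transduced and drug-selected population, while the parental cells are not labelled as carrying a vector. ATRA was given to every group, so no difference below measures the response to ATRA itself. The labels name 2 biological replicates per condition without saying how they were separated, so a p-value here measures the spread between these libraries only.

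The libraries held 38316523 to 56256979 counts on genes each. ZMYND8 itself stood at 72.7 and 69.9 CPM (counts scaled by the normalized library size) in parental and 4102 and 4155 CPM in overexpression libraries. Its level was 59.5 and 61.0 CPM in KD control against 31.3 and 31.5 in KD libraries. The line was labelled as neuroblastoma epithelial cells. The sympathetic markers HAND2 (110 to 395 CPM) and GATA3 (38.0 to 90.3 CPM) were present in all 8 libraries, TH was at or below 0.0929 CPM, and the Schwann cell factor SOX10 was at or below 0.0235 CPM. Adrenergic and mesenchymal markers, which tell apart the neuroblast-like and the substrate-adherent cells that this line holds, moved with the groups. Summed over 13 adrenergic markers, the level was 344 to 347 CPM in parental, 1252 to 1325 in overexpression, 952 to 1011 in KD control and 735 to 830 in KD libraries. Summed over 14 mesenchymal markers, it was 11072 to 11642, 4122 to 4379, 6620 to 6795 and 7778 to 8299 CPM in the same order. COL1A1 (4046 CPM in parental and 1604 in KD control) and VIM (2205 and 852) weighed heavily in that sum. In KD control 6 of the 14 were higher than in parental libraries and 7 lower, at an edgeR adjusted p below 0.05. Of all 20385 genes, 6855 were higher and 7389 lower. FOSL1 (34.8 and 69.1 CPM) and NOTCH2 (1052 and 1469) were among those higher. The part of this shift in the levels below was not tested, and in bulk RNA more cells of a type cannot be told apart from more RNA per cell.

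The sequences shown are the 250 bases before an annotated start of 4 genes whose level was higher with ZMYND8 overexpression and of PTBP1, whose level hardly moved. RefSeq (GRCh38.p14) start sites were matched for 8 of the 10 genes, with 37 start sites in all, and for each gene shown the window is the first listed one without any base in an annotated exon. RBFOX2 and ELAVL3 had no entry. Capitals mark matches on either strand to AGGTCA, the core of retinoid receptor sites, to CAGCTG, an E-box, or to TTCAGCACC and GGACAGC, the left and right parts of the element bound by the neuronal gene repressor REST. These motifs do not overlap each other.
RBFOX1 (chr16:6018774-6019023, plus strand): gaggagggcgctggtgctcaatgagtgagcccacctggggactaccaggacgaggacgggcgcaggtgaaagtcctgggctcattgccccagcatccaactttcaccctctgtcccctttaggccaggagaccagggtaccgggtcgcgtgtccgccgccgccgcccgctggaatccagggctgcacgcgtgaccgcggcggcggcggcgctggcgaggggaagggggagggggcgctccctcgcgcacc
NOVA1 (chr14:26598034-26598283, minus strand): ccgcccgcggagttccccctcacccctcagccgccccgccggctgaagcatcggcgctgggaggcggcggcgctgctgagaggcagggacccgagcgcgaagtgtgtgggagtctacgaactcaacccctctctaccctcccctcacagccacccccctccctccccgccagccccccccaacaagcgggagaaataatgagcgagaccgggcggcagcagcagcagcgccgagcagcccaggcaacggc
ELAVL2 (chr9:23823133-23823382, minus strand): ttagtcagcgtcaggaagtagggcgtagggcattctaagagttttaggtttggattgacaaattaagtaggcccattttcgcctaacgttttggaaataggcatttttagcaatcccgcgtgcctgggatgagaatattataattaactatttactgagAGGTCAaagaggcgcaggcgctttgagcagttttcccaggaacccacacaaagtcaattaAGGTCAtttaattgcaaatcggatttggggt
ELAVL4 (chr1:50103659-50103908, plus strand): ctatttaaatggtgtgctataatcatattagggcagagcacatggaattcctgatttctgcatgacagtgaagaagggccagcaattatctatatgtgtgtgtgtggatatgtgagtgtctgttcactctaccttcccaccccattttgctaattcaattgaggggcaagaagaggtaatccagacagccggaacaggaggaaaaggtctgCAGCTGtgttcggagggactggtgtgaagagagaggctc
PTBP1 (chr19:797734-797983, plus strand): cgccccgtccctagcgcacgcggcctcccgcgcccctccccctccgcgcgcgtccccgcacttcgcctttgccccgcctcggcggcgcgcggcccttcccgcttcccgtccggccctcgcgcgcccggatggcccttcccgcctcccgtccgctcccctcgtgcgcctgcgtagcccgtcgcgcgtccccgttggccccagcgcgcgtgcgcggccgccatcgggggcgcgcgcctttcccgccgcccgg

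In these windows AGGTCA appeared 2 times before the ELAVL2 start and CAGCTG 1 time before the ELAVL4 start, and the RBFOX1, NOVA1 and PTBP1 windows held no match. Over all 37 windows of the 8 genes, AGGTCA lay in 9, CAGCTG in 7, GGACAGC in 3 and TTCAGCACC in 0. Among 35116 windows of all genes the shares were 12.1% for AGGTCA, 14% for CAGCTG, 4.76% for GGACAGC and 0.288% for TTCAGCACC. The windows of the members are not independent. RBFOX3 alone, a gene with few reads, has 12 of them, and some windows of the same gene overlap. No difference from the shares of all genes was tested. The windows differed in base composition, from 42.4% G and C for the ELAVL2 window and 46% for ELAVL4 to 70.8% for RBFOX1, 71.6% for NOVA1 and 82.4% for PTBP1, with a median of 58% over all windows. Counts per gene do not show which start was in use.

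**Figure D1:**
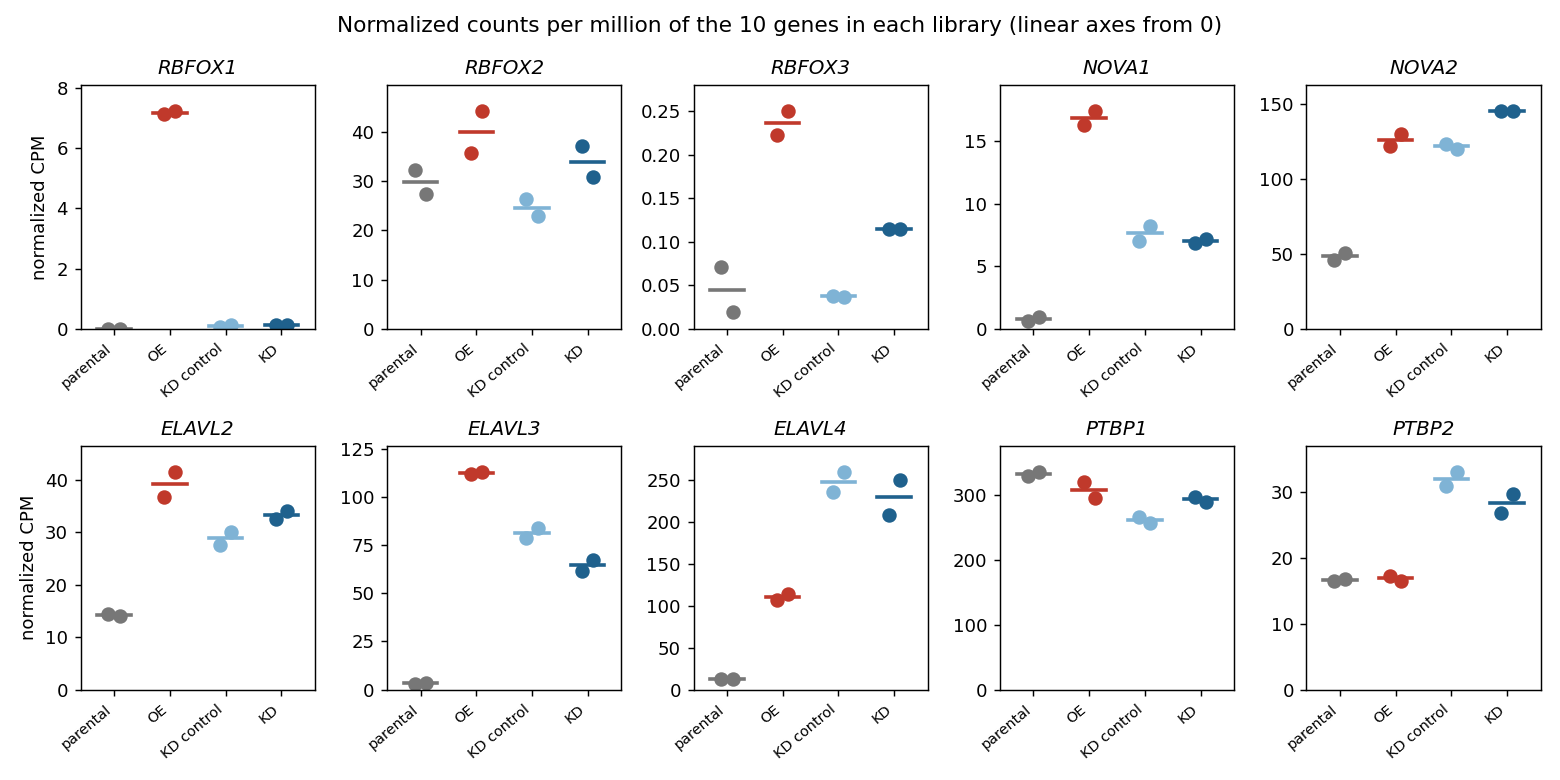
CPM (counts scaled by normalized library size, linear axes from 0) of the 10 genes in the 4 groups, with dots for the 2 libraries of each group and a line for their mean. NOVA1, NOVA2, ELAVL2, ELAVL3 and ELAVL4 were lowest in the parental libraries, while PTBP1 was highest there, and RBFOX1 stood out in the overexpression libraries at 7.12 and 7.23 CPM.

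With ZMYND8 overexpression, 6 of the 10 genes met the call rule in the upward direction and 0 in the downward direction. The call rule was a Benjamini-Hochberg adjusted p below 0.05 in edgeR's quasi-likelihood test, a log2 fold change of 1 or more in size and a mean count over 20 after normalization. In the background of 20835 genes tested, 11.8% were called higher and 6.85% lower, and because the genes were selected on this comparison nothing is read from their count. The 6 genes were RBFOX1, NOVA1, NOVA2, ELAVL2, ELAVL3 and ELAVL4. Both PTBP genes, RBFOX2 and RBFOX3 were not called. The median log2 fold change was 1.94 over the 10 genes and 0.03 over all genes tested. Its fitted value for RBFOX1 depends on the prior count, because that gene had no parental read, and this does not enter the median. The median does rest on RBFOX3, with 4 parental counts in all.

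RBFOX1 (ENSG00000078328, chromosome 16, 5239802 to 7713340, plus strand), the RBFOX gene of neurons, heart and muscle, gave 0 reads in either parental library and 383 and 318 reads with overexpression. The KD control libraries held 3 and 7 reads of it, the KD libraries 7 and 6. Only the overexpression libraries held more than 7 reads of RBFOX1. Set against a floor of 3 counts per parental library, the level with overexpression was at least 111-fold higher. Per length of annotated exons it was still low there, at 1.87 ± 0.107 TPM, counts scaled by exon length and library (SD, n = 2). Too few reads were left for a test in the knockdown comparison, where its ratio of KD to KD control came to 1.34 with a 95% counting interval of 0.544 to 3.42.

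RBFOX2 (ENSG00000100320, chromosome 22, 35738736 to 36028824, minus strand) is the broadly expressed paralog and acts in epithelial, muscle and neural splicing. Its level was 32.2 and 27.3 CPM in parental, 35.7 and 44.2 in overexpression, 26.4 and 22.8 in KD control and 37.1 and 30.8 in KD libraries. Each treated group lay above its own control without overlap, with log2 fold changes of 0.43 (SE 0.102) for overexpression and 0.47 (SE 0.0979) for knockdown. The knockdown difference passed the adjusted p threshold (edgeR, adjusted p = 0.00562) but not the fold threshold. It missed the former without KD control replicate 2, at 0.37 and adjusted p = 0.0753 in edgeR. Of the 31-base sequences in RBFOX2 exons, 93% also occur on an alternate contig of the genome, so reads that match 2 places may be missing from its counts and its level per length is uncertain.

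RBFOX3 (ENSG00000167281, chromosome 17, 79089345 to 79516148, minus strand) encodes NeuN, the antigen by which mature neurons are stained. It had 3 and 1 counts in parental, 12 and 11 in overexpression, 2 and 2 in KD control and 6 and 6 in KD libraries. The treated groups held more reads than their controls in both comparisons, but in none of the 8 libraries did NeuN transcripts exceed 0.25 CPM. The overexpression ratio was 5.54 with a 95% counting interval of 1.89 to 22, and the knockdown ratio was 3.1 with an interval of 0.939 to 13.2. These intervals, like all counting intervals here, leave out the spread between replicates and cover counting error only.

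NOVA1 (ENSG00000139910, chromosome 14, 26443090 to 26598033, minus strand), an antigen in a paraneoplastic neurological disorder, was at 0.659 and 0.967 CPM in the parental libraries. It was at 16.3 and 17.4 CPM with overexpression, 7.02 and 8.22 in KD control and 6.88 and 7.18 in KD libraries. The 3 other groups all lay far above the parental libraries, and the overexpression libraries lay highest. The log2 fold change was 4.36 (SE 0.158) for overexpression. For knockdown it was -0.12 (SE 0.119, edgeR adjusted p = 0.533), and the KD and KD control libraries overlapped.

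NOVA2 (ENSG00000104967, chromosome 19, 45933734 to 45974044, minus strand), the NOVA gene of the cortex and of endothelium, was the more abundant paralog in all libraries. Its level was 45.8 and 50.5 CPM in parental, 122 and 130 in overexpression, 123 and 120 in KD control and 145 and 145 in KD libraries. The log2 fold change was 1.39 (SE 0.0618) for overexpression and 0.26 (SE 0.0476) for knockdown. NOVA2 thus rose with knockdown by a small amount (edgeR adjusted p = 0.00267, higher in 2 of 2 KD libraries), and this held in every alternative fit. By TPM, NOVA1 made up 1.47% ± 0.291 of the NOVA1 and NOVA2 sum in parental, 10.6% ± 0.0312 in overexpression, 5.3% ± 0.642 in KD control and 4.13% ± 0.129 in KD libraries (SD, n = 2). The NOVA pool was therefore made mostly of NOVA2 transcripts in each group.

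ELAVL2 (ENSG00000107105, chromosome 9, 23690104 to 23826337, minus strand), the HuB gene, is active early in neuronal development and in the germ line. Its level was 14.4 and 14 CPM in parental, 36.7 and 41.5 in overexpression, 27.6 and 30 in KD control and 32.6 and 34.0 in KD libraries. None of the 4 groups overlapped. The log2 fold change was 1.47 (SE 0.0757) for overexpression. For knockdown it was 0.21 (SE 0.0687, edgeR adjusted p = 0.0468), a difference that lost the threshold with DESeq2 (adjusted p = 0.0766) and with upper quartile normalization (edgeR, adjusted p = 0.0612). It also lost it without any 1 of KD control replicate 1, KD control replicate 2 and KD replicate 2, with values of 0.14 to 0.28 and edgeR adjusted p of 0.0602 to 0.292.

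ELAVL3 (ENSG00000196361, chromosome 19, 11451326 to 11481046, minus strand), the HuC gene, is a marker of postmitotic neurons. It was at 2.85 and 3.64 CPM in the parental libraries and at 112 and 113 with overexpression. The KD control libraries stood at 78.8 and 83.7 CPM and the KD libraries at 61.6 and 67.2. The groups did not overlap. ELAVL3 had the largest fitted change among the members with parental reads, a log2 fold change of 5.11 (SE 0.087) or 34.5-fold. It fell with knockdown by 0.33 on the log2 scale (SE 0.0589, edgeR adjusted p = 0.00221, lower in 2 of 2 KD libraries), and it passed the adjusted p threshold in every alternative fit. No other member was lower at that threshold, except PTBP2 and ELAVL4 in some alternative fits.

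ELAVL4 (ENSG00000162374, chromosome 1, 50024029 to 50203772, plus strand), the HuD gene, stabilises mRNAs of axon growth such as GAP43. Its level was 12.1 and 12.2 CPM in parental, 107 and 114 in overexpression, 236 and 260 in KD control and 209 and 250 in KD libraries. Unlike the other neuronal ELAVL genes, ELAVL4 stood higher in KD control than in overexpression libraries, a difference that was not tested. The log2 fold change was 3.19 (SE 0.0609) for overexpression. For knockdown it was -0.11 (SE 0.0806, edgeR adjusted p = 0.372), with overlapping libraries, and it was 0.01 without KD replicate 1 and -0.24 (edgeR adjusted p = 0.00837) without KD replicate 2.

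The neuronal ELAVL genes took different shares of their pool in the 4 groups. By TPM, ELAVL2 held 56.5% ± 1.79 of the ELAVL2, ELAVL3 and ELAVL4 sum in parental libraries, 17.1% ± 0.909 in overexpression, 10.7% ± 0.00764 in KD control and 13.7% ± 0.907 in KD libraries (SD, n = 2). ELAVL3 held 13.9% ± 2.2, 53.1% ± 1.33, 32.7% ± 0.558 and 28.6% ± 0.978 in the same order. ELAVL4 held 29.6% ± 0.404, 29.8% ± 0.421, 56.6% ± 0.551 and 57.7% ± 1.88. So by TPM ELAVL2 led in parental, ELAVL3 in overexpression and ELAVL4 in KD control and KD libraries. The lead of ELAVL3 with overexpression rests on the length divisor, all annotated exons of a gene (4761 bases for ELAVL3, 8368 for ELAVL4). In mean CPM, ELAVL3 and ELAVL4 stood at 112 and 111 there. Which transcripts were expressed is not known from these counts. The ubiquitous paralog ELAVL1 (HuR), which is no member, was at 92.0, 106, 87.5 and 80.3 TPM, with log2 fold changes of 0.06 (SE 0.0559, edgeR adjusted p = 0.362) for overexpression and -0.01 (SE 0.0476, edgeR adjusted p = 0.901) for knockdown. Against ELAVL1, the neuronal genes together held 16.5% ± 0.424 of all ELAVL TPM in parental, 63.3% ± 1.89 in overexpression, 66.1% ± 1.48 in KD control and 64.1% ± 2.25 in KD libraries.

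**Figure D2:**
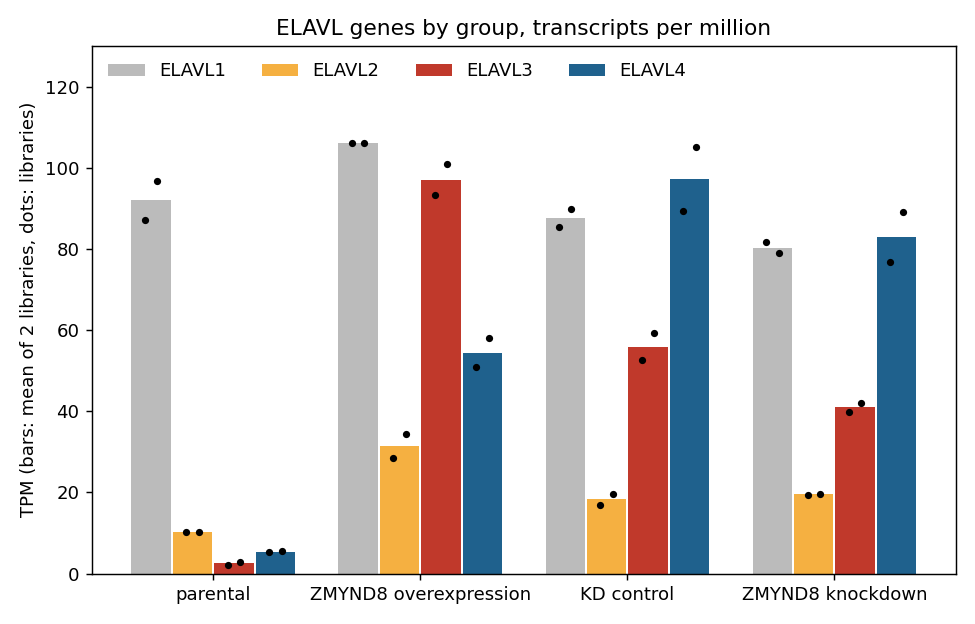
TPM (counts scaled by exon length and library) of the 4 ELAVL genes by group on a linear axis from 0, with bars for the mean of 2 libraries and dots for the libraries. ELAVL1 stayed between 80.3 and 106 TPM in group mean. The leading neuronal gene by TPM was ELAVL2 at 10.2 in parental, ELAVL3 at 97.0 in overexpression and ELAVL4 at 97.1 in KD control and 83.0 in KD libraries. In mean CPM, ELAVL3 and ELAVL4 were at 112 and 111 in overexpression libraries.

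PTBP1 (ENSG00000011304, chromosome 19, 797075 to 812327, plus strand) was at 163 ± 6.8, 168 ± 1.64, 114 ± 2.05 and 118 ± 5.11 TPM in parental, overexpression, KD control and KD libraries (SD, n = 2). That was the highest TPM of the members in every group, leaving aside RBFOX2, whose level per length is uncertain. The level of PTBP1 was 329 and 335 CPM in parental and 320 and 295 in overexpression libraries, which did not overlap but lay close, with a log2 fold change of -0.10 (SE 0.0535). After correction for trends with gene length and with GC content that value was -0.36, and without overexpression replicate 1 it was -0.16. In KD control and KD libraries PTBP1 stood at 266 and 257 against 297 and 288 CPM. It was higher with knockdown by 0.17 on the log2 scale (SE 0.0502, edgeR adjusted p = 0.0355), and this passed no threshold when KD control replicate 1, KD control replicate 2 or KD replicate 1 was left out (0.14 to 0.18, edgeR adjusted p of 0.0917 to 0.203) or with upper quartile normalization (edgeR, adjusted p = 0.0522).

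PTBP2 (ENSG00000117569, chromosome 1, 96721665 to 96823738, plus strand), the neuronal paralog, was at 16.5 and 16.8 CPM in parental and 17.3 and 16.5 in overexpression libraries, which overlapped. Its log2 fold change there was 0.03 (SE 0.0765), and it was -0.04 with the length trend taken out and 0.27 with the length and GC trends taken out. In KD control libraries it was at 30.9 and 33.1 CPM and in KD libraries at 26.8 and 29.8. The knockdown value was -0.17 (SE 0.0733, edgeR adjusted p = 0.116). By TPM, PTBP2 made up 2.5% ± 0.00168 of the PTBP1 and PTBP2 sum in parental, 2.74% ± 0.0666 in overexpression, 5.9% ± 0.402 in KD control and 4.73% ± 0.43 in KD libraries (SD, n = 2). PTBP3, another paralog, had log2 fold changes of -0.32 (SE 0.0534, edgeR adjusted p = 0.000453) for overexpression and -0.49 (SE 0.0519, edgeR adjusted p = 9.23e-05) for knockdown. It was lower in all treated libraries of both comparisons.

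Of the 8 members that could be tested in the knockdown comparison, 0 were called by edgeR and 0 by DESeq2, against 1.36% called higher and 0.596% called lower of all 19789 genes. At an unadjusted p below 0.05 in edgeR there were 6, beside 7153 of all 19789 genes. At the adjusted p alone, edgeR put 4 higher (RBFOX2, NOVA2, ELAVL2, PTBP1) and 1 lower (ELAVL3), and DESeq2 passed 4 in all. In the background, 13.4% of genes were higher and 10.8% lower by that looser rule. The median over the 8 members was 0.03 and over all genes -0.01. Each of these differences was below 1 on the log2 scale, and ZMYND8 itself fell by 0.94 (SE 0.0556, edgeR adjusted p = 2.2e-06) in the KD libraries.

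**Figure D3:**
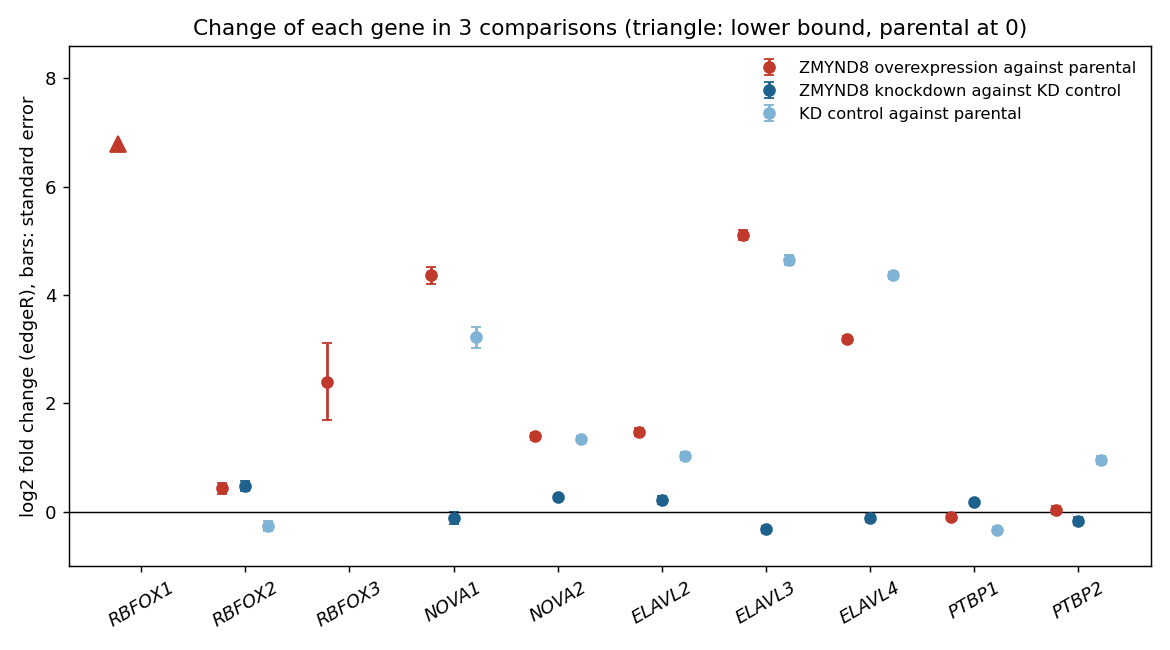
Fitted log2 fold change (edgeR) of each member that could be tested in the overexpression, knockdown and KD control against parental comparisons, with bars for the standard error. The triangle is the lower bound for RBFOX1 (at least 111-fold). Among members with parental reads, overexpression values reach 5.11 (ELAVL3), below the bound for RBFOX1, and knockdown values lie between -0.33 (ELAVL3) and 0.47 (RBFOX2).

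The KD control libraries were not at the parental level of these genes. Compared with parental cells, 5 of 8 tested members were called higher and 0 lower, where 10.8% of all 20385 genes were called higher and 10.8% lower. The log2 fold changes were 4.64 (SE 0.0916) for ELAVL3, 4.36 (SE 0.0692) for ELAVL4, 3.22 (SE 0.197) for NOVA1, 1.34 (SE 0.0571) for NOVA2 and 1.03 (SE 0.0751) for ELAVL2. PTBP2 was next at 0.95 (SE 0.0693). RBFOX2 was at -0.27 (SE 0.0921) and PTBP1 at -0.34 (SE 0.0475), though PTBP1 was at -0.05 with the length and GC trends taken out. This comparison uses the same parental libraries as the overexpression comparison, so the values are not independent of it. The labels do not say whether these groups come from the same experiment. They name Dox for the parental cells and a control knockdown for the KD control cells. What these treatments and any difference between experiments each add cannot be told apart.

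The difference between the overexpression effect and the knockdown effect, fitted over all 8 libraries, was called for 6 of the 10 members, with 18.8% of 22619 genes called in either direction. It was 5.43 (SE 0.112) for ELAVL3, 4.47 (SE 0.209) for NOVA1, 3.30 (SE 0.117) for ELAVL4, 1.25 (SE 0.104) for ELAVL2 and 1.13 (SE 0.0794) for NOVA2 on the log2 scale, and RBFOX1 was the sixth. For RBFOX2 it was -0.04 (SE 0.159), which changed sign in 6 alternative fits. PTBP1 was at -0.27 (SE 0.0744) and PTBP2 at 0.20 (SE 0.105). As the overexpression arm had served to choose the genes, these are descriptions.

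Ordered by mean CPM, parental was the lowest group for NOVA1, NOVA2, ELAVL2, ELAVL3, ELAVL4 and RBFOX1, and for PTBP2, where it overlapped with overexpression. Neighbouring groups in the order did not overlap at any step for ELAVL2 and ELAVL3. For NOVA1 the KD and KD control libraries overlapped, for NOVA2 the KD control and overexpression libraries, and for ELAVL4 and RBFOX1 the KD and KD control libraries. RBFOX2 was lowest in KD control, and its parental, KD and overexpression libraries each overlapped with the next. RBFOX3 was lowest in KD control, which overlapped with parental. For PTBP1, KD control was lowest and parental highest in CPM, and only its KD and overexpression libraries overlapped. By TPM, PTBP1 was at 163 in parental and 168 in overexpression libraries, so its highest group depends on the measure.

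Per length of annotated exons, the order of the members changed more between parental and the other groups than among those. In parental libraries PTBP1 (163 TPM) was followed by NOVA2 (19.4), RBFOX2 (10.6), ELAVL2 (10.2), ELAVL4 (5.37), PTBP2 (4.2) and ELAVL3 (2.53). RBFOX2 and ELAVL2 differed by less than the RBFOX2 SD of 0.913. The place of RBFOX2 is uncertain in every group, because reads that match an alternate contig may be missing. In overexpression libraries PTBP1 (168 TPM) was followed by ELAVL3 (97.0), NOVA2 (56.5), ELAVL4 (54.4) and ELAVL2 (31.4). NOVA2 and ELAVL4 differed there by less than their SDs of 5.2 and 5.1. In mean CPM, ELAVL3 and ELAVL4 stood at 112 and 111 in these libraries. In KD control libraries the same places went to ELAVL4 (97.1), ELAVL3 (55.9), NOVA2 (43.2) and ELAVL2 (18.3).

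The genes whose pattern over the 8 libraries was most like each member were found by Pearson's r of log2 CPM, a description over 4 pairs of replicates and no test. ELAVL4 was most like NEFM (r = 0.9995), a neurofilament gene, with GAP43 also near the top (r = 0.9985). NOVA1 was most like SEMA6D (0.9996), ELAVL3 like RTL5 (0.9997), ELAVL2 like GPRIN3 (0.9976), NOVA2 like MTURN (0.9969) and RBFOX1 like the potassium channel gene KCNN1 (0.9970). PTBP2 was most like ZNF283 (0.9979) and PTBP1 like THY1 (0.9851). For RBFOX2 the highest value was 0.9581, with ETNK2. For RBFOX3, at a few counts per library, it was 0.9719, with IMMT. The candidates were 12052 or 12053 genes, and all points share their libraries and depth.

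Of 27 other splicing factors with tissue-restricted expression, 24 were tested with overexpression, and 8 were called higher, 3 lower and 13 not called. Over all genes tested, 11.8% were called higher and 6.85% lower. The list had a median log2 fold change of 0.56 against 0.03 over all genes. The highest were CELF genes, which encode regulators of splicing and RNA decay. They were named for their large change in this same comparison, so their adjusted p is no separate test of them. CELF2 had 3 counts in all in the parental libraries and 937 in the overexpression libraries, a ratio of 301 with a 95% counting interval of 103 to 1461. CELF3 rose by 4.73 (SE 0.102, edgeR adjusted p = 9.73e-11), CELF4 by 4.57 (SE 0.239, edgeR adjusted p = 5.21e-08) and CELF5 by 4.47 (SE 0.122, edgeR adjusted p = 4.67e-10). SRRM4 and SRRM3, which drive neuronal microexons, rose by 4.37 (SE 0.148, edgeR adjusted p = 2e-09) and 3.19 (SE 0.075, edgeR adjusted p = 1.76e-10). Also named after their values were seen, MSI1 rose by 3.59 and KHDRBS3 by 1.38, while MBNL1 fell by 1.10, MBNL2 fell by 1.85 and RBM47 fell by 1.98. MBNL proteins favour exons of differentiated muscle and RBM47 acts in epithelial splicing.

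With knockdown, 22 of these factors were tested and 0 were called by edgeR or DESeq2. In edgeR 11 had an unadjusted p below 0.05, beside 7153 of all 19789 genes. At the adjusted p alone 3 were higher and 5 lower. Chosen after their values were seen, the 3 were RBM20 (0.55), MBNL1 (0.41) and QKI (0.36), and the lower ones besides PTBP3 were RBM47 (-0.56), CELF4 (-0.46), RBM24 (-0.45) and SRRM4 (-0.32). Without KD control replicate 2, CELF2 was called at 1.01 (edgeR adjusted p = 0.0421), so that the count was 1. SRRM3 was at -0.03 (SE 0.0719, edgeR adjusted p = 0.801). In KD control against parental libraries, 9 of 22 tested were called higher and 1 lower, beside 10.8% called in each direction over all 20385 genes.

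**Figure D4:**
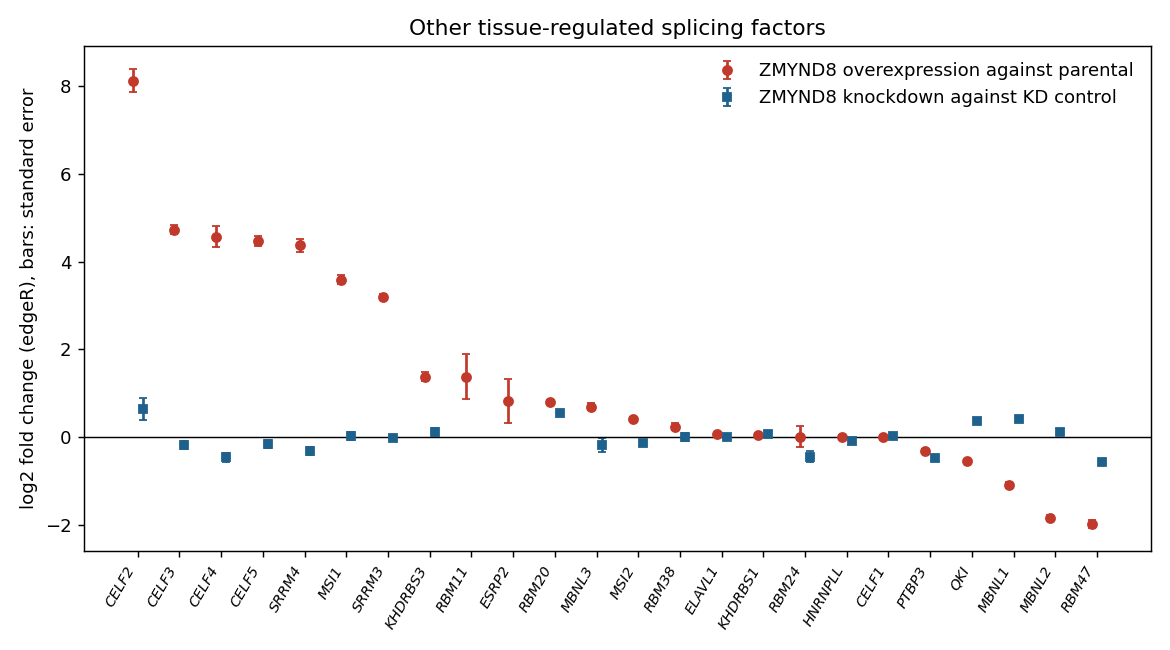
Log2 fold change (edgeR, bars for the standard error) of other tissue-regulated splicing factors, ordered by the overexpression value, with knockdown values as squares. Overexpression values run from -1.98 for RBM47 to 8.13 for CELF2, a fitted value that rests on 3 parental counts, and knockdown values stay under 1 in size.

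Few general splicing proteins were called. Of 40 SR proteins and hnRNPs, 2 were called higher with overexpression and 0 lower, with a median of -0.02. Of all 20835 genes, 11.8% were called higher and 6.85% lower. The 2 called were SRSF12 at 1.44 (SE 0.122, edgeR adjusted p = 2.38e-06) and PCBP3 at 1.10 (SE 0.0761, edgeR adjusted p = 4.72e-07). With knockdown 0 of the 40 were called by edgeR or DESeq2, and 16 had an unadjusted p below 0.05. In KD control against parental libraries 2 of the 40 were called higher and 0 lower, with a median of 0.23. At the edgeR adjusted p alone, 23 were higher and 4 lower there. Of all 20385 genes, 6855 were higher and 7389 lower by that looser rule. Among 9 partners that bind the members' proteins, 0 were called in either comparison by edgeR. An unadjusted p below 0.05 was found for 3 with overexpression and 5 with knockdown. Over all genes tested, 13392 of 20835 with overexpression and 7153 of 19789 with knockdown passed that p.

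Transcripts that textbooks list as targets of these proteins were counted per gene, so exon choice in them is not seen here. With overexpression, 6 of 17 tested were called higher and 2 lower, beside 11.8% and 6.85% of all 20835 genes. GLRA2, a receptor subunit whose exons NOVA controls, had 0 counts in both parental libraries and was at least 14-fold higher. GRIN1, a PTBP target, rose by 4.72 (SE 0.179, edgeR adjusted p = 4.76e-09), and MYCN, whose mRNA HuD binds, went from 6 to 151 counts, a ratio of 24.2 with a 95% counting interval of 10.9 to 67.1. GAP43 rose by 2.42 (SE 0.0879, edgeR adjusted p = 3.44e-09). With knockdown 0 of 13 tested were called by edgeR or DESeq2, with 6 at an unadjusted p below 0.05, and GAP43 was at -0.06 (SE 0.0627, edgeR adjusted p = 0.544). MAPT, whose exon choice several of these proteins affect, had 0 to 18 counts in the 8 libraries, and 98.8% of its 31-base exon sequences are found on alternate contigs too, so its level cannot be read from these counts.

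REST, which holds many neuronal genes down in other cells, was at 154 and 147 CPM in parental, 100 and 95.4 in overexpression, 234 and 242 in KD control and 253 and 258 in KD libraries. It fell by 0.61 on the log2 scale with overexpression (SE 0.0513, edgeR adjusted p = 2.29e-06) and was at 0.11 with knockdown (SE 0.0497, edgeR adjusted p = 0.153). KD control libraries held more REST transcripts than parental libraries (log2 fold change 0.67, SE 0.0496, edgeR adjusted p = 5.16e-07). REST protein was not measured, and any effect of REST on the members was not tested. All 4 host genes of the neuronal microRNAs miR-124 and miR-9 that were tested rose with overexpression, MIR124-1HG by 5.19 (SE 0.255, edgeR adjusted p = 3.26e-08) and MIR9-1HG by 2.61 (SE 0.292, edgeR adjusted p = 2.08e-05). MiR-124 is known to act on PTBP1 mRNA, but mature microRNAs are not measured by these libraries.

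Most neuron markers were higher in the same groups. Of 14, 11 were called higher with overexpression and 9 in KD control against parental libraries, and with knockdown 0 were called by edgeR or DESeq2, with 6 at an unadjusted p below 0.05 and 5 lower at the adjusted p alone. Their summed level was 702 to 706 CPM in parental, 1774 to 1908 in overexpression, 2003 to 2126 in KD control and 1747 to 1951 in KD libraries. UCHL1, the largest part of the parental sum, went the other way. Its mean was 390 CPM in parental, 303 in overexpression, 308 in KD control and 335 in KD libraries. SYT1 hardly moved with overexpression (91.2 CPM in parental and 90.3 in overexpression). The 4 that rose most with overexpression were SYP (4.77), NEFL (4.66), STMN4 (4.29) and L1CAM (4.28), as log2 fold changes. Of the adrenergic markers, 9 of 12 tested were called higher with overexpression, among them GATA2 (4.0) and CHGA (3.67), whose exon sequences all recur on an alternate contig. Of the mesenchymal markers 8 of 14 were called lower and 1 higher, and those that fell most were CD44 (-2.55), PRRX1 (-2.39), COL1A1 (-1.77) and FOSL1 (-1.75). With knockdown, 6 of 11 adrenergic markers were lower at the adjusted p alone and 7 of 14 mesenchymal markers higher, with 2 lower. Of 8 cycling cell markers, 0 were called with overexpression by edgeR, with 5 at an unadjusted p below 0.05, and 7 were called lower in KD control against parental libraries. Glial and Schwann cell markers summed to 15.3 to 27.5 CPM over all libraries, and with overexpression 2 of 6 tested were called higher, S100B (3.14) and ERBB3 (2.58), and 1 lower, MBP (-1.62). Over all genes tested, 11.8% were called higher and 6.85% lower with overexpression. In KD control against parental libraries it was 10.8% in each direction. The part of these marker changes in the members' values was not tested.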

How the data were processed

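The authors deposited a table of counts, whole numbers of reads per gene, for 8 libraries of SK-N-SH cells. They had trimmed the reads (Trim_Galore), mapped them to GRCh38, or hg38, by Hisat2 and assigned them to GENCODE genes by featureCounts. The strand setting is not given in the sources used here. A gene split over 3 lines was left out, which left 60659 genes. Symbols came from GENCODE release 44, which held 60418 of the identifiers, and coordinates from the count table. Reads that match several places can be lost, and 261 alternate contigs were searched for exonic sequences of 31 bases.

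Genes with low counts were dropped by filterByExpr and TMM factors computed. Tests were two-sided and came from the quasi-likelihood fit of edgeR (version 4.0.16, in R 4.3.3 with limma 3.58.1), with Benjamini-Hochberg adjustment over all genes tested. A comparison used the 4 libraries of its groups, and the difference of effects used all 8. The thresholds follow the study's methods, with the adjusted p in place of p. CPM use TMM factors over 8 libraries, and TPM use the exon lengths of the table. Folds against groups at 0 were computed against 3 counts per library, and ratios of few counts have exact binomial 95% intervals. The fits were tested on simulated data. No replicate pair agreed within counting noise, as the chi-square per degree of freedom was 6.05 to 8.86.

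All members were to be named, and from each other list the 4 called genes with the largest change in the overexpression comparison and the 2 in the knockdown comparison whose groups do not overlap, with REST, PTBP3, ELAVL1, SRRM3, SRRM4, MAPT and GAP43 whatever their values. For likeness, 3 protein-coding genes with a mean of at least 100 were taken per member. Members and lists were chosen with earlier results of these data known. Genes named for their change in a comparison are described there, and their adjusted p is no separate test of them. Some genes that this rule names are not reported here. MATR3 (several identifiers) and MIR9-2HG were not used here. Alternatives were RLE and upper quartile factors, DESeq2 (version 1.42.0), no filter, length and GC trends taken out (loess, span 0.5), changed thresholds, a joint fit of all 8 libraries, a block for the replicate number and each library left out in turn.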

Additional observations from a re-analysis of the deposited data

Results flagged for a closer look

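For 7 members the overexpression effect and the knockdown effect stood apart in a model over all 8 libraries (edgeR). At the adjusted p alone, 11081 of all 22619 genes tested did so as well. The overexpression arm had been used to choose the genes, so these differences were largely fixed by that choice and are given as a description, with no test. On the log2 scale the difference was 5.43 for ELAVL3, which was higher in both overexpression libraries and lower in both KD libraries than in their controls. It was 4.47 for NOVA1 and 3.30 for ELAVL4, whose KD libraries overlapped with their controls. For ELAVL2 it was 1.25 and for NOVA2 1.13, and both were higher than their controls in all 4 treated libraries, by a larger amount with overexpression. For RBFOX1 the fitted value was 11.09, which depends on the prior count because the parental libraries had 0 reads. For PTBP1 it was -0.27, with log2 fold changes of -0.10 for overexpression and 0.17 for knockdown. In RBFOX2, PTBP2 and RBFOX3 the difference was -0.04, 0.20 and 0.83.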

How the results depend on the processing

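The 6 calls of members with overexpression stood at 6 under all alternatives except at the adjusted p alone (8). With knockdown they stood at 0 except at the adjusted p alone (5). Over all genes tested, the adjusted p alone passed 12663 of 20835 with overexpression and 4799 of 19789 with knockdown. It passed 14244 of 20385 in KD control against parental libraries. In KD control against parental libraries the 5 calls came to 8 at the adjusted p alone and to 4 to 6 under the other alternatives, with 4 without KD control replicate 2 and 6 without KD control replicate 1. For the other splicing factors the adjusted p alone gave 18, 8 and 19 calls in place of 11, 0 and 10 in these comparisons, and without each library in turn the knockdown count was 0 to 1. The 1 was CELF2, called at 1.01 without KD control replicate 2 (edgeR adjusted p = 0.0421). Signs turned for values near 0 only. PTBP2 with overexpression was -0.04 with the length trend taken out, with and without the replicate block. With knockdown, leaving out each library in turn gave -0.23 to 0.00 for NOVA1 (the latter without KD control replicate 2) and -0.24 to 0.01 for ELAVL4 (the latter without KD replicate 1). The RBFOX2 difference of effects was 0.03 with upper quartile factors and 0.01 with length and GC trends taken out, and ran from -0.20 to 0.10 with each library left out in turn, above 0 without parental replicate 1 (0.07), overexpression replicate 1 (0.10), KD control replicate 2 (0.05) or KD replicate 1 (0.09). The cause was not tested.

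The replicate numbers share no stated batch, and deviations of same-numbered libraries correlated at 0.054 (parental and overexpression), 0.176 (KD control and KD) and -0.106 (parental and KD control), so the numbers were not taken to pair the libraries. With the replicate block the counts of members called were 6, 0, 5 and 6 in the 4 fits, and PTBP2 with knockdown passed the adjusted p threshold in edgeR (-0.17, adjusted p = 0.0287). With 2 libraries a group, and few reads of RBFOX1 and RBFOX3, small differences of these genes are not resolved.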

Other observations

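Among genes at the borders of the members, the divergent transcript NOVA1-DT had 0 to 9 counts in the 8 libraries, too few to be tested. The processed pseudogene PTBP1P, which resembles PTBP1, had 33 and 40 counts in parental, 2 and 2 in overexpression, 6 and 4 in KD control and 24 and 17 in KD libraries, while PTBP1 itself had 12995 to 17316. With overexpression PTBP1P was lower by a log2 fold change of -4.15 (SE 0.472, edgeR adjusted p = 2.41e-05) at a mean normalized count of 19.6, below the limit of 20 for a call, and with knockdown it was at 2.06 (SE 0.51, edgeR adjusted p = 0.0143). These 2 genes were named after their values were seen.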
